A study of Mus musculus with 17 samples.

Results

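The genes described here encode 3′ to 5′ RNA exonucleases and subunits of the RNA exosome. They are the 10 genes *Dis3*, *Exosc2*, *Exosc3*, *Exosc8*, *Exosc9*, *Exosc10*, *Dis3l2*, *Parn*, *Toe1* and *Eri1*. They were picked by symbol from the 54532 genes in the expression table, by no rule on their values, but with earlier results of these data known. All 10 were among the 21871 genes that had at least 1 TPM in at least 2 libraries and were tested. TPM is a transcript level scaled for gene length and to a fixed total per library. RNA sequencing was done in 17 libraries of R1/E cells, a line of mouse embryonic stem cells. The groups were wild-type cells without retinoic acid (RA) at day 0 (2 libraries), wild-type cells treated with RA for 1 day (3 libraries) or 3 days (3 libraries), and *Usb1* knockout cells at the same 3 time points (3 libraries each). RA makes these cells leave self-renewal and differentiate. The knockout was made by CRISPR/Cas9, and its libraries came from the single line KO-1, so the knockout and differences between clones cannot be told apart. The replicates are biological replicates of these lines, and p-values measure the spread between them.

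USB1 is itself a 3′ exonuclease, which trims the oligo(U) tail of U6 snRNA. The exosome is the main 3′ to 5′ RNA degrading complex of the nucleus and the cytoplasm. A barrel of catalytically inert ring subunits, which include EXOSC8 and EXOSC9, is topped by RNA-binding cap subunits, which include EXOSC2 and EXOSC3, and RNA threaded through it is degraded by DIS3, while EXOSC10 is a second nuclease that acts mainly in the nucleus and nucleolus. DIS3L2 works without the exosome on uridylated RNA in the cytoplasm, the deadenylases PARN and TOE1 trim the 3′ ends of small noncoding RNAs, and ERI1 acts on histone mRNA and the 3′ end of 5.8S rRNA.

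The reads recovered from TPM summed to 15404379 to 17300186 per library. *Dis3* had the most reads of the 10 genes, 3658 to 7827 per library, and *Toe1* the fewest at its lowest library, 272 to 409. In 3 libraries few genes had 1 read, namely 239 and 1352 in wild-type replicates 1 and 2 at day 0 and 1224 in *Usb1* knockout replicate 1 at day 3, against 2150 to 2467 in the other libraries. Both wild-type libraries at day 0 are among them, so each comparison with that group rests on such libraries. *Usb1* was lower in the knockout libraries but still detected, at 14.7 to 21.4 TPM over the 9 knockout libraries and 32.0 to 56.9 TPM over the 8 wild-type libraries. The Y-linked genes examined were listed at 0 in all 9 knockout libraries and summed to 128 to 160 TPM in the wild-type libraries. The summed TPM of 8 embryonic stem cell markers, such as *Pou5f1* and *Nanog*, was 5515 to 5987 at day 0 in both genotypes. By day 3 it was 431 to 479 in wild-type and 615 to 701 in *Usb1* knockout cells. A sum over 7 RA-induced genes was 934 to 1077 TPM in wild-type and 545 to 610 TPM in *Usb1* knockout cells at day 3.

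Promoter windows of 300 bases, from 250 bases before to 50 after the transcription start, were given for 8 of the 10 genes by RefSeq on GRCm38.p6. Stretches of 140 bases, which end 30 bases after the start, are shown for the genes that share short sequences there. *Dis3* and *Exosc10*, the catalytic subunits, both carry the palindrome TCTCGCGAGA, in capitals, which is the longest run of letters that their windows share. It is found in 0.466% of all 32851 promoter windows on either strand. In *Exosc3*, *Parn* and *Dis3l2* the capitals mark CCGGAAG, the core letters bound by ETS factors.
Dis3, chr14:99099741-99099880, minus strand: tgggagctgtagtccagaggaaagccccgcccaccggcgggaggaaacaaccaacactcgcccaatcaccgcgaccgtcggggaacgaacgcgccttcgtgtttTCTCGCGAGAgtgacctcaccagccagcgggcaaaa
Exosc10, chr4:148558309-148558448, plus strand: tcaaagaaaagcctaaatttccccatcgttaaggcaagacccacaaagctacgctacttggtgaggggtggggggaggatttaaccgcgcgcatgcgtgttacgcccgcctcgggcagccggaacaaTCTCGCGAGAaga
Exosc3, chr4:45320587-45320726, minus strand: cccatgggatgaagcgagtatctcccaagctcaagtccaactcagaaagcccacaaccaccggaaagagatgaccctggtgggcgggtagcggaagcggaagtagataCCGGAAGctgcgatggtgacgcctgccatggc
Parn, chr16:13668141-13668280, minus strand: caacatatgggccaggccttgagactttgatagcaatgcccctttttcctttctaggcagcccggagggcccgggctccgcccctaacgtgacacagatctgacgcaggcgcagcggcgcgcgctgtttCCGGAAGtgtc
Dis3l2, chr1:86703694-86703833, plus strand: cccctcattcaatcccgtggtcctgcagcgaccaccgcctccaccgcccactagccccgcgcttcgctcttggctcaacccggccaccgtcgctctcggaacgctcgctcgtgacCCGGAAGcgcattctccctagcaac

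CCGGAAG was present on either strand in the windows of 5 of the 8 genes, the further ones being *Dis3* upstream of the stretch shown and a second window of *Exosc10*, and in 8.86% of all windows. None of the 8 genes had TATAAA, which 13.6% of all windows hold, or a repeat of GGTCA after 5 bases, which 0.0761% hold. CCAAT was in the windows of *Dis3*, *Exosc2* and *Toe1* and in 37.4% of all windows. The windows were searched on both strands for letters chosen after they had been read, and a match is only a description of the sequence.

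The highest and lowest of the 10 genes differed 18.5-fold in mean TPM in wild-type cells at day 0, and the order of the levels changed with RA. In wild-type cells at day 0, *Dis3* was highest at 197 ± 20.3 TPM (SD, n = 2), followed by *Exosc10* at 145 ± 0.475 and *Exosc3* at 127 ± 9.33. The cap subunit gene *Exosc2* (77.4 ± 2.81) and the ring subunit gene *Exosc8* (58.1 ± 1.16) were intermediate. *Toe1*, *Eri1*, *Exosc9* and *Parn* lay between 22.3 and 29.0 TPM in the mean, and *Dis3l2* was lowest at 10.7 ± 1.04 TPM. At day 3 of RA in wild-type cells, *Exosc10* (113 ± 2.94 TPM, n = 3) and *Dis3* (110 ± 3.01) were at similar levels, with overlapping libraries, and *Exosc9* was the lowest of the 10 at 13.3 ± 0.634 TPM. The ratio of *Dis3* to *Dis3l2* TPM, the catalytic exosome subunit against its exosome-independent relative, was 16.0 to 21.3 in the wild-type libraries at day 0 and 6.88 to 7.41 at day 3. In *Usb1* knockout cells this ratio was 11.8 to 12.4 at day 0 and 5.24 to 6.77 at day 3. The 10 genes together summed to 701 to 737 TPM in wild-type cells at day 0 and 488 to 492 TPM at day 3, and to 678 to 722 and 514 to 525 TPM in *Usb1* knockout cells.

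**Figure D1:**
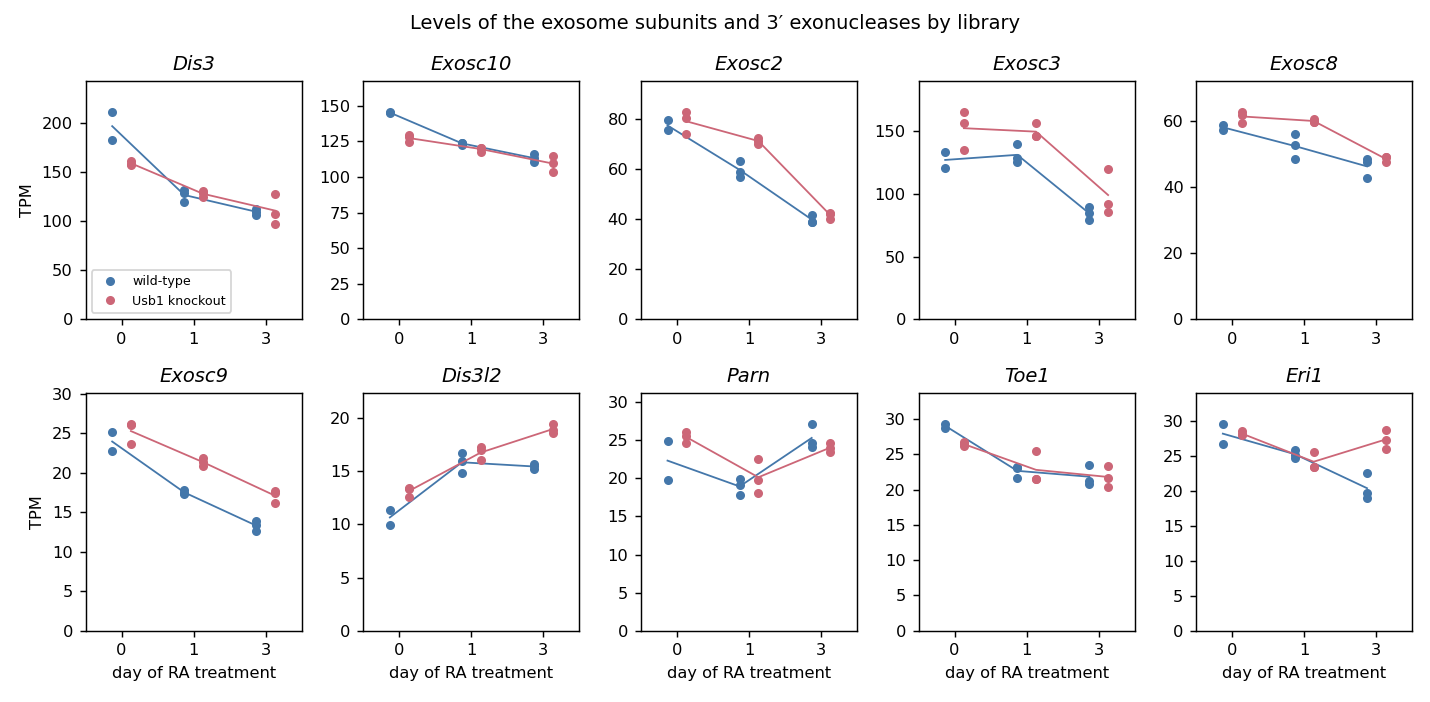
TPM (y axes, from 0) of each gene against the day of RA treatment (x axes, days evenly spaced), with 1 point per library and lines through the group means, in wild-type (blue) and *Usb1* knockout cells (red). The exosome subunit genes are lower at day 3 than at day 0 in both genotypes, *Dis3l2* is higher, and *Eri1* at day 3 is at 19.0 to 22.5 TPM in wild-type and 26.1 to 28.7 TPM in *Usb1* knockout cells.

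The first question was how the genes respond to RA. At day 3, all 6 exosome subunit genes among the 10 were lower than at day 0 in both genotypes, *Dis3l2* was higher in both, and *Parn* passed the test in neither. In wild-type cells, 8 genes fell and 1 rose, with adjusted p-values of limma's moderated test on log2(TPM + 1) over all 21871 genes under 0.05. Over all genes tested, 52.1% passed the same test, 22.5% lower and 29.6% higher. In *Usb1* knockout cells, 7 of the 10 fell and 1 rose, against 51.5% of all genes, 21.8% lower and 29.7% higher. The 7 genes that fell in the knockout were among the 8 that fell in wild-type cells, and the other one was *Eri1*. With libraries scaled to an equal median, 9 fell and 0 rose in the knockout. That scaling also lowered the median change of all genes, so the shares above are not its background. In the main fit no change of the 10 genes reached 2-fold in any comparison. Of all genes, 25.8% did so and passed at day 3 in wild-type and 21.9% in *Usb1* knockout cells. Under alternatives, *Exosc2* reached -1.15 on the log2 scale in wild-type and -1.22 in knockout cells at day 3, and *Dis3* reached -1.05 in wild-type cells. The median log2 change of the 10 genes was -0.42 in wild-type and -0.30 in *Usb1* knockout cells, beside 0.10 and 0.03 over all genes tested. In bulk RNA, fewer cells of a type and less RNA per cell cannot be told apart.

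*Exosc2*, a cap subunit gene, had the largest fall of the 10 at day 3. The wild-type libraries had 75.4 and 79.4 TPM at day 0, 58.7, 56.8 and 63.3 at day 1 and at 41.6, 39.0 and 38.8 at day 3. In *Usb1* knockout cells it was at 74.0, 82.7 and 80.5 TPM at day 0, 69.9, 71.0 and 72.5 at day 1, and 40.0, 41.9 and 42.6 at day 3. The levels at the 3 time points did not overlap within either genotype. The log2 fold change from day 0 to day 3 was -0.94 ± 0.06 (SE, adjusted p = 1.23e-08) in wild-type and -0.91 ± 0.06 (adjusted p = 4.59e-09) in *Usb1* knockout cells. The genotypes differed in this response by 0.03, with a 95% interval from -0.16 to 0.21.

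*Exosc3*, the other cap subunit gene here, kept its level for a day and then fell. Its wild-type libraries were at 134 and 121 TPM at day 0, at 126, 140 and 129 at day 1, and at 89.4, 84.6 and 79.2 at day 3. The knockout libraries were at 135, 165 and 157 TPM, then 146, 146 and 157, then 120, 91.8 and 85.8. Days 0 and 1 overlapped in both genotypes and day 3 was below them, with knockout replicate 1, which had few genes with 1 read, at the upper end. From day 0 to day 1 the log2 fold change was 0.05 (95% interval -0.21 to 0.30) in wild-type and -0.02 (-0.25 to 0.21) in *Usb1* knockout cells. From day 1 to day 3 it was -0.63 ± 0.11 (adjusted p = 0.000203) and -0.60 ± 0.11 (adjusted p = 0.000291).

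The ring subunit genes *Exosc8* and *Exosc9* differed in the size of their response. For *Exosc9* the wild-type libraries had 25.2 and 22.7 TPM at day 0, at 17.3, 17.5 and 17.8 at day 1, and at 12.6, 13.9 and 13.4 at day 3. In *Usb1* knockout cells it was at 26.2, 26.1 and 23.6 TPM, then 20.8, 21.9 and 21.4, then 17.7, 16.1 and 17.4. In each genotype, every library was lower than those of the day before it. *Ccna2*, a gene on the opposite strand that overlaps exons of *Exosc9*, also fell at day 3 in both genotypes. Its part in the fall of *Exosc9* was not tested. The log2 fold change at day 3 against day 0 was -0.80 ± 0.08 in wild-type cells (adjusted p = 6.52e-07) and -0.54 ± 0.07 in *Usb1* knockout cells (adjusted p = 1.25e-05). The difference between these responses, 0.26 (95% interval 0.04 to 0.49), did not pass after adjustment over all genes (adjusted p = 0.158). For *Exosc8* the same changes were -0.32 ± 0.07 (adjusted p = 0.00087) and -0.33 ± 0.06 (adjusted p = 0.000274), from 57.2 to 62.7 TPM over both genotypes at day 0 to 42.6 to 49.1 TPM at day 3.

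The catalytic subunit genes *Dis3* and *Exosc10* made most of their fall in wild-type cells by day 1. The wild-type libraries had 211 and 183 TPM of *Dis3* at day 0, 132, 120 and 129 at day 1, and at 107, 110 and 113 at day 3. The knockout libraries were at 159, 162 and 157 TPM at day 0, at 124, 131 and 129 at day 1, and at 97.4, 107 and 128 at day 3. No library at day 0 overlapped with those at later days, and knockout replicate 3 at day 3 lay within the range of day 1. The log2 fold change at day 1 was -0.63 ± 0.09 (adjusted p = 7.25e-05) in wild-type and -0.31 ± 0.08 (adjusted p = 0.00925) in *Usb1* knockout cells, and at day 3 it was -0.84 ± 0.09 (adjusted p = 1.68e-06) and -0.53 ± 0.08 (adjusted p = 5.58e-05). The genotypes differed by 0.31 in the response at day 3 (95% interval 0.05 to 0.57), which did not pass the test (adjusted p = 0.147). It passed without wild-type replicate 2 at day 0 (0.41, adjusted p = 0.0458) and without knockout replicate 1 at day 3 (0.40, adjusted p = 0.0386). *Exosc10* had 146 and 145 TPM in the wild-type libraries at day 0, 124, 124 and 123 at day 1, and 113, 110 and 116 at day 3, with no overlap between the days. Its knockout libraries were at 124 to 129 TPM at day 0, 118 to 121 at day 1 and 103 to 115 at day 3. The log2 fold change at day 3 was -0.36 ± 0.05 (adjusted p = 1.77e-05) in wild-type and -0.22 ± 0.04 (adjusted p = 0.000572) in *Usb1* knockout cells.

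*Dis3l2* went the other way. Its wild-type libraries were at 9.92 and 11.4 TPM at day 0, 16.0, 14.9 and 16.7 at day 1, and 15.5, 15.6 and 15.2 at day 3. The knockout libraries were at 13.4, 13.3 and 12.6 TPM at day 0, 16.1 to 17.2 at day 1, and 18.6, 19.5 and 18.8 at day 3. In both genotypes every library with RA was above every library without it. The log2 fold change at day 1 was 0.53 ± 0.08 (adjusted p = 0.00015) in wild-type and 0.33 ± 0.07 (adjusted p = 0.00367) in *Usb1* knockout cells, and at day 3 it was 0.50 in both genotypes (adjusted p = 0.000122 and 4.11e-05). With libraries scaled to an equal median, the rise in the knockout at day 3 was 0.20 (adjusted p = 0.0522). From day 1 to day 3, wild-type cells changed by -0.03 (95% interval -0.19 to 0.13).

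The exonucleases of small noncoding RNAs did not share one course. *Toe1* fell at day 3 by 0.40 ± 0.09 on the log2 scale in wild-type cells (adjusted p = 0.00137), from 28.7 and 29.3 TPM at day 0 to 20.7, 23.6 and 21.2 TPM. In *Usb1* knockout cells it fell by 0.27 ± 0.08 (adjusted p = 0.00945), from 26.2 to 26.7 TPM at day 0 to 20.4 to 23.3 TPM at day 3. *Tesk2*, on the opposite strand, shares 40.7% of the exon length of *Toe1* and also fell in both genotypes, and its part was not tested. In the main fit, *Parn* passed as lower at day 1 in *Usb1* knockout cells alone (-0.33 ± 0.09, adjusted p = 0.0163), while wild-type cells were at -0.22 ± 0.10 (adjusted p = 0.112). Wild-type cells also passed with quantile normalization (-0.33, adjusted p = 0.0256) and with equal medians (-0.42, adjusted p = 0.0087). The call in the knockout was lost under 2 of 27 alternatives. The genotypes differed in this response by -0.11 (95% interval -0.41 to 0.19). The wild-type libraries had 19.8 and 24.8 TPM at day 0, 17.8, 19.1 and 19.9 at day 1, and 24.6, 24.1 and 27.2 at day 3. The knockout libraries were at 25.5, 26.0 and 24.7 TPM, then 22.5, 19.7 and 18.1, then 24.7, 23.4 and 24.0. From day 1 to day 3, *Parn* rose by 0.40 ± 0.09 on the log2 scale in wild-type cells (adjusted p = 0.00262) and by 0.25 ± 0.09 in *Usb1* knockout cells (adjusted p = 0.0402). The rise in the knockout was lost under 16 of 27 alternatives. Among these were quantile normalization (0.06, adjusted p = 0.673), equal medians (0.03, adjusted p = 0.818), replicate number as a block (0.25, adjusted p = 0.0607) and leaving out knockout replicate 1 at day 3 (0.23, adjusted p = 0.095). Its change from day 0 to day 3 was 0.18 (95% interval -0.04 to 0.40) in wild-type and -0.08 (-0.28 to 0.12) in *Usb1* knockout cells. It passed as a rise in wild-type cells without replicate 2 at day 0 (0.34, adjusted p = 0.0214) and as a fall in the knockout with equal medians (-0.38, adjusted p = 0.00445).

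**Figure D2:**
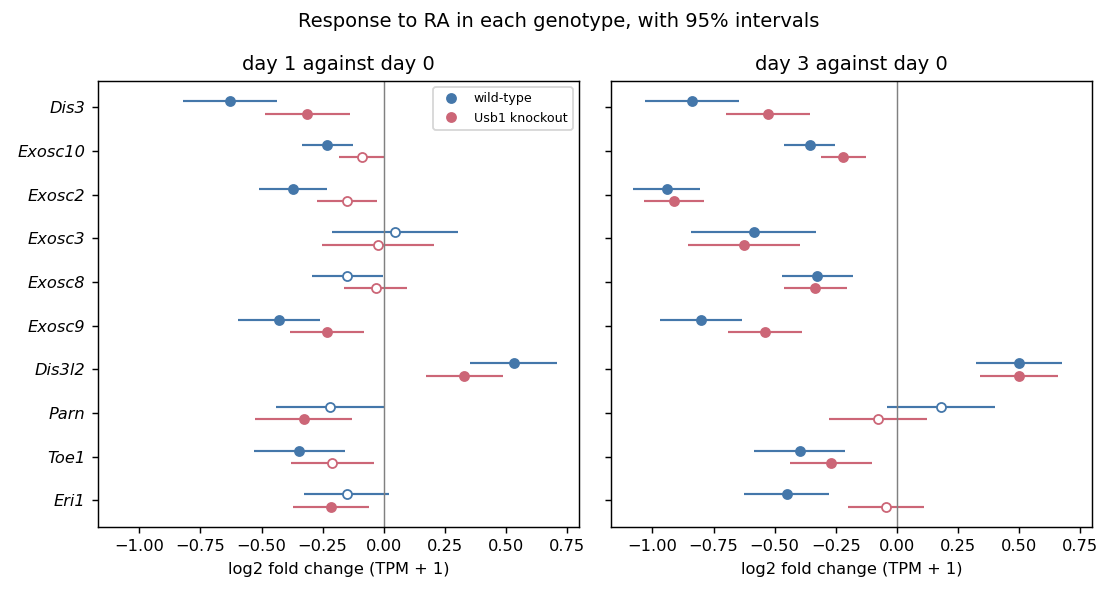
Log2 fold change of TPM + 1 (x axes) of each gene at day 1 and day 3 against day 0, in wild-type (blue) and *Usb1* knockout cells (red), with 95% intervals as lines and filled points for an adjusted p under 0.05. At day 3 the points of the exosome subunit genes lie between -0.94 and -0.22, those of *Dis3l2* at 0.50, and *Eri1* is at -0.45 in wild-type and -0.04 in *Usb1* knockout cells.

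After 1 day of RA, 5 of the 10 genes had fallen and 1 had risen in wild-type cells, while 38% of all genes tested passed, 12.5% lower and 25.5% higher. In *Usb1* knockout cells, 4 had fallen and 1 had risen, while 27.7% of all genes passed, 11.7% lower and 16% higher. *Dis3* and *Exosc9* fell in both genotypes and *Dis3l2* rose in both. *Toe1*, *Exosc2* and *Exosc10* passed in wild-type cells alone and *Parn* and *Eri1* in *Usb1* knockout cells alone, and the difference between the genotypes in this response passed for 0 of the 10 genes and 2.23% of all genes by limma's test. Of the 10, 3 had an unadjusted p under 0.05, and limma's voom on the recovered reads called 0. Between day 1 and day 3, 7 genes fell and 1 rose in wild-type cells (43.8% of all genes, 24.3% lower and 19.5% higher), and 6 fell and 1 rose in *Usb1* knockout cells (44.9% of all genes, 19.4% lower and 25.5% higher). The 1 was *Parn* in both. In the knockout the split was 7 lower and 0 higher with equal medians, a scaling to which these shares of all genes do not apply. Some of these counts rest on 1 library. Without knockout replicate 2 at day 0 or replicate 3 at day 1, the count in the knockout at day 1 was 2 of 10. From day 1 to day 3 it was 5 of 10 in wild-type cells without replicate 3 at day 1 and 4 of 10 in the knockout without replicate 2 at day 1.

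The remaining exosome subunit genes also fell. Of 12 subunit genes in all, 11 were tested, and *Exosc6*, a ring subunit gene, is listed at 0 in all libraries. At day 3 against day 0, 11 of 11 were lower in wild-type cells and 10 of 11 in *Usb1* knockout cells, with median log2 changes of -0.77 and -0.56. These counts include the 6 subunit genes described above, and of the other 5 tested, 5 and 4 were lower. Of all genes tested, 22.5% were lower in wild-type and 21.8% in *Usb1* knockout cells. *Exosc7*, a ring subunit gene, was at -0.74 ± 0.08 (adjusted p = 1.04e-06) and -0.88 ± 0.07 (adjusted p = 4.48e-08). *Exosc5*, also of the ring, had the largest fall of the 11 in both genotypes, from 69.7 ± 4.12 TPM (SD, n = 2) to 29.96 ± 3.37 TPM (n = 3) in wild-type cells (-1.20 ± 0.11, adjusted p = 4.75e-07) and from 61.0 ± 1.27 to 30.6 ± 5.10 TPM in *Usb1* knockout cells (-0.99 ± 0.10, adjusted p = 1.04e-06). The cap subunit gene *Exosc1* was at -0.97 ± 0.10 (adjusted p = 1.47e-06) and -0.78 ± 0.09 (adjusted p = 4.4e-06). *Dis3l*, which encodes the cytoplasmic relative of DIS3, was at -0.60 in wild-type cells, where it passed, and at -0.23 in *Usb1* knockout cells, where it did not. The responses of the genotypes differed by -0.14 to 0.37 over the 11 subunit genes, with an unadjusted p under 0.05 for 2 of them and an adjusted p under 0.05 for 0 by limma's test.

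Among cofactors and other RNA decay genes, changes at day 3 went both ways, at a time when 22.5% of all genes tested were lower and 29.6% higher in wild-type cells and 21.8% and 29.7% in *Usb1* knockout cells. The counts of these short lists are given beside those shares as a description. Of 11 nuclear exosome cofactors, 4 passed in wild-type cells, each lower, and 3 fell and 1 rose in *Usb1* knockout cells, with the helicase gene *Skiv2l2* at -0.69 and -0.34. Of 4 cytoplasmic cofactors, 3 fell in each genotype, led by *Ttc37*, a subunit of the SKI complex, at -0.93 and -0.79. Other deadenylases moved both ways, with 4 lower and 2 higher of 10 in wild-type cells, from *Noct* at -2.26 to *Cnot7* at 0.48. Terminal nucleotidyltransferases, which add A or U to RNA 3′ ends, also moved both ways in wild-type cells, with 2 of 5 lower and 3 higher, and *Tut4*, which adds U tails of the kind DIS3L2 recognises, rose by 0.61 in wild-type and 1.22 in *Usb1* knockout cells. Among other 3′ exonucleases, *Pnpt1*, the mitochondrial polynucleotide phosphorylase gene, fell from 119 ± 15.1 to 70.8 ± 3.12 TPM in wild-type cells and rose from 135 ± 12.1 to 227 ± 29.3 TPM in *Usb1* knockout cells, a difference in response of 1.48 ± 0.14 (adjusted p = 7.18e-05). Of 9 noncoding RNAs that such enzymes act on, 4 were tested, and these had few reads. *Rn7sk*, the 7SK RNA, rose at day 3 in both genotypes (4.46 ± 0.64, adjusted p = 3.4e-05, and 3.31 ± 0.58, adjusted p = 0.00019), to 28 to 39 reads in the wild-type and 7 to 57 in the knockout libraries, from 0 to 2 reads at day 0, so these values depend on the added 1 TPM. *Rmrp* and *Rpph1* are listed at 0 in all libraries, and *Terc*, the telomerase RNA whose 3′ end PARN and TOE1 process, had 1 to 42 reads. *Terc* fell by 2.13 ± 0.46 at day 3 in *Usb1* knockout cells (adjusted p = 0.0013), from 22 to 32 reads to 1 to 10, and was at -0.67 ± 0.52 in wild-type cells (adjusted p = 0.309).

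**Figure D3:**
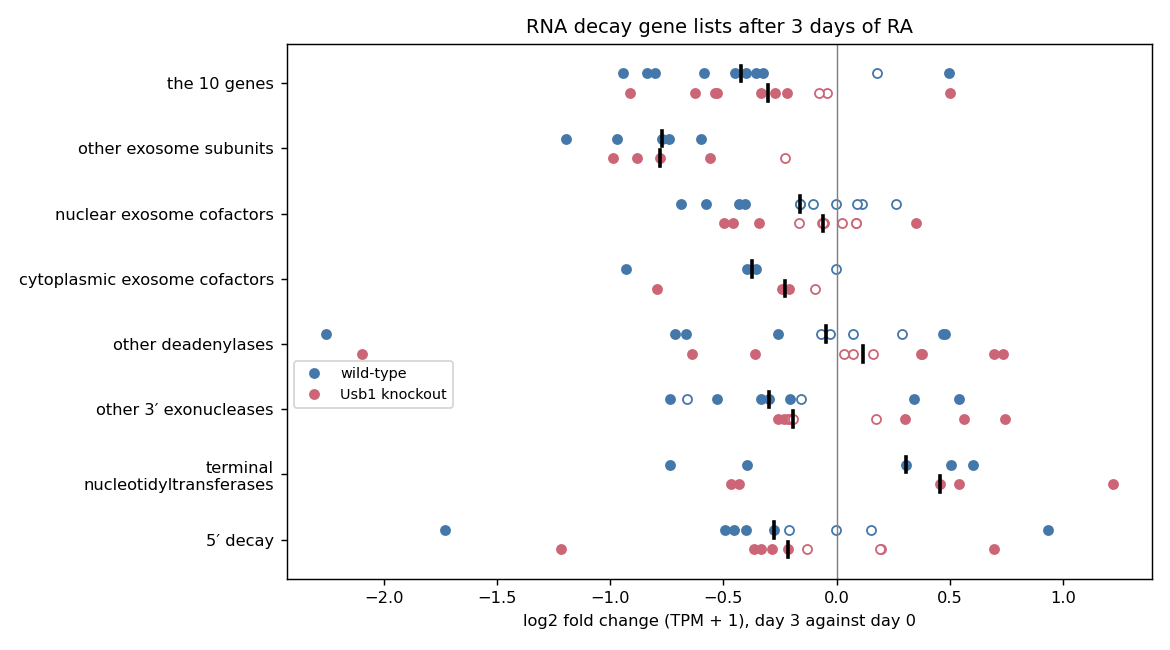
Log2 fold change of TPM + 1 at day 3 against day 0 (x axis) for the 10 genes and 7 lists of other RNA decay genes, in wild-type (blue) and *Usb1* knockout cells (red), with 1 point per gene, filled for an adjusted p under 0.05, and a black bar at the median of the list. The other exosome subunits lie between -1.20 and -0.60 in wild-type cells, while deadenylases and nucleotidyltransferases lie on both sides of 0.

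The second question was whether loss of *Usb1* changed these genes. Differences between the genotypes were small, at most 1.33-fold in the main fit, and *Exosc9* passed as higher in *Usb1* knockout cells at both RA time points. *Dis3l2*, higher at day 3, was at 0.08 at day 1 (adjusted p = 0.551), and it also passed on that day with quantile normalization (0.26, adjusted p = 0.0324) and equal medians (0.31, adjusted p = 0.0244). At day 3, *Eri1*, *Exosc9* and *Dis3l2* were higher in *Usb1* knockout cells and none of the other 7 had an unadjusted p under 0.05 by limma's test, while 7.52% of all genes tested passed, 3.96% higher and 3.56% lower. At day 1, *Exosc2*, *Exosc8* and *Exosc9* were higher, while 17.3% of all genes passed, 3.74% higher and 13.6% lower. At day 0, *Dis3l2* was higher and *Dis3* and *Exosc10* were lower, while 11.9% of all genes passed, 5.08% higher and 6.8% lower. *Toe1* and *Parn* did not pass at any day, with 95% intervals within -0.32 to 0.17 and -0.27 to 0.41, except that *Parn* passed at day 0 without wild-type replicate 2 (0.34, adjusted p = 0.0418).

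**Figure D4:**
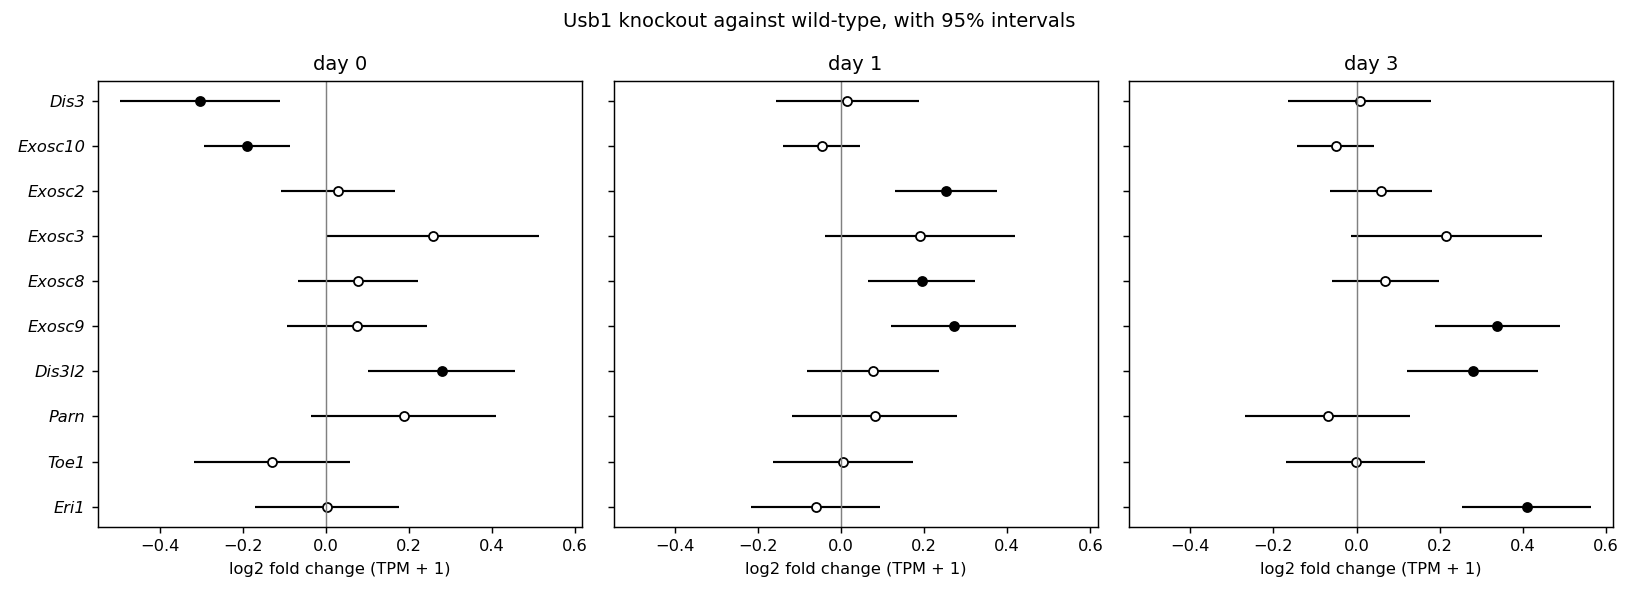
Log2 fold change of TPM + 1 (x axes) of *Usb1* knockout against wild-type cells at day 0, 1 and 3, with 95% intervals as lines and filled points for an adjusted p under 0.05. *Dis3* and *Exosc10* pass below 0 at day 0 alone, *Exosc9* passes above 0 at days 1 and 3, and *Eri1* is at 0.41 at day 3.

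*Eri1* had the largest difference between the genotypes of the 10 genes. Its TPM at day 0 was 29.6 and 26.8 in the wild-type libraries and 28.0, 28.6 and 28.1 in the knockout libraries, and at day 1 the values were 25.2, 24.8 and 25.8 TPM against 25.6, 23.4 and 23.5 TPM. At day 3 the wild-type libraries had 19.7, 19.0 and 22.5 TPM and the knockout libraries 27.3, 26.1 and 28.7 TPM. The genotypes overlapped at days 0 and 1 and were apart at day 3. The log2 difference at day 3 was 0.41 ± 0.07 (adjusted p = 0.00281), after 0.00 (95% interval -0.17 to 0.18) at day 0 and -0.06 (-0.22 to 0.09) at day 1. Wild-type cells fell by 0.45 ± 0.08 from day 0 to day 3 (adjusted p = 0.000253), and *Usb1* knockout cells changed by -0.04 (95% interval -0.20 to 0.11). With equal medians the change in the knockout was -0.35 (adjusted p = 0.00417) and with quantile normalization -0.23 (adjusted p = 0.0142). The genotypes differed in the response from day 0 to day 3 by 0.41 ± 0.11 (adjusted p = 0.0415) and from day 1 to day 3 by 0.47 ± 0.10 (adjusted p = 0.0125). These were the only responses of the 10 genes in which a difference between the genotypes passed, in comparisons where 6.15% and 7.61% of all genes did. The first was lost under 17 of 27 alternatives, with values of 0.30 to 0.48 and adjusted p-values of 0.016 to 0.217. Among these was leaving out any 1 of 12 of the 17 libraries, with the largest adjusted p without wild-type replicate 1 at day 0 (0.34, adjusted p = 0.151). The second was lost with quantile normalization (0.32, adjusted p = 0.075) and with equal medians (0.26, adjusted p = 0.31). Markers of other cell types also differed between the genotypes at day 3. All 4 tested of 6 fibroblast markers were higher in *Usb1* knockout cells, with sums of 57.2 to 67.0 TPM against 30.3 to 37.8 TPM, and 5 of 6 primitive endoderm markers were lower, with sums of 185 to 209 TPM against 395 to 434 TPM. Of the 8 embryonic stem cell markers, 6 were higher and 2 lower, and of the 7 RA-induced genes 4 were lower. The part of these in the differences of *Eri1*, *Exosc9* and *Dis3l2* was not tested.

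*Exosc9* was higher in *Usb1* knockout cells by 0.27 ± 0.07 on the log2 scale at day 1 (adjusted p = 0.017) and by 0.34 ± 0.07 at day 3 (adjusted p = 0.00854), with no overlap between the genotypes, and by 0.08 (95% interval -0.09 to 0.24) at day 0. The call at day 1 was lost under 3 of 27 alternatives (limma, largest adjusted p = 0.0617). They were leaving out wild-type replicate 1, knockout replicate 2 or knockout replicate 3 of that day. *Ccna2*, the cyclin A2 gene on the opposite strand, overlaps 10.8% of the exon length of *Exosc9*, and the library kit is not stated to keep the strand. Its group means were 129 to 194 TPM. *Ccna2* differed between the genotypes at day 3 by 0.06 (95% interval -0.07 to 0.18). From day 0 to day 3 it fell by 0.58 in wild-type cells (limma, adjusted p = 2e-06) and by 0.48 in *Usb1* knockout cells (adjusted p = 4.69e-06). Tests of *Eri1* and *Exosc9* at day 3 on the 6 libraries of that day alone gave adjusted p-values of 0.0779 and 0.0866. *Exosc2* was higher by 0.25 ± 0.06 at day 1 (adjusted p = 0.00808), and its difference was 0.03 at day 0 and 0.06 at day 3. Of the differences between the genotypes that passed on a given day, that of *Exosc2* at day 1 alone was kept under all 27 alternatives. *Exosc8* was higher by 0.19 ± 0.06 at day 1 (adjusted p = 0.0399), with libraries at 48.4 to 56.1 TPM in wild-type and 59.7 to 60.5 TPM in *Usb1* knockout cells. This call was lost under 9 of 27 alternatives, with adjusted p-values of 0.0747 on the libraries of that day alone and 0.188 (0.14) without wild-type replicate 1 at day 1. The embryonic stem cell marker sum was also higher in *Usb1* knockout cells on that day, at 3928 to 4044 TPM against 3100 to 3176 TPM. Of the 8 markers, 4 passed as higher by limma's test and 4 did not pass. The part of these markers in the differences of *Exosc2*, *Exosc8* and *Exosc9* at day 1 was not tested.

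None of the 3 differences at day 0 passed under every alternative, and none of the 3 at day 3 did. At day 0, *Dis3* was lost under 19 of 27 alternatives, *Dis3l2* under 16 and *Exosc10* under 8. *Dis3* was lower in *Usb1* knockout cells by 0.30 ± 0.09 on the log2 scale (adjusted p = 0.0434), *Exosc10* by 0.19 ± 0.05 (adjusted p = 0.0225), and *Dis3l2* was higher by 0.28 ± 0.08 (adjusted p = 0.0427). The genotypes did not overlap for any of them. They also did not overlap for *Toe1*, *Exosc3* and *Exosc8*, which did not pass, so a lack of overlap does not set the genes that passed apart. Without wild-type replicate 1, which had the fewest genes with 1 read, the differences were -0.20 (adjusted p = 0.326) for *Dis3*, -0.19 (adjusted p = 0.107) for *Exosc10* and 0.19 (adjusted p = 0.272) for *Dis3l2*, so none of the 3 passed by limma's test, which was also so without knockout replicate 2 or 3. Without wild-type replicate 2, 4 of the 10 passed, among them *Parn*. With quantile normalization or equal medians, 1 passed, which was higher. At day 3, *Dis3* and *Exosc10* differed by 0.01 (95% interval -0.17 to 0.18) and -0.05 (-0.14 to 0.04). *Dis3l2* was again higher at day 3, by 0.28 ± 0.07 (adjusted p = 0.0326), a call lost under 8 of 27 alternatives. Among these were leaving out any 1 library of that day, such as knockout replicate 1 (0.29, adjusted p = 0.054), and replicate number as a block (0.28, adjusted p = 0.057). The largest adjusted p by limma's test was 0.0956. The count at day 1 was 1 of 10 without wild-type replicate 1, knockout replicate 2 or knockout replicate 3.

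The genes lie on 7 chromosomes of GRCm38, with *Toe1*, *Exosc3* and *Exosc10* on chromosome 4 and *Exosc8* and *Exosc9* on chromosome 3. *Eri1* is at chr8:35465253-35496196 on the minus strand, on the same chromosome as *Usb1* (chr8:95332284-95347507). All 10 are protein-coding. Exons of 6 of them overlap an exon of a gene on the opposite strand. The share is highest for *Toe1*, of whose exon length 40.7% is shared with *Tesk2*, a gene at 6.45 to 12.4 TPM in the group means. *Tesk2* also fell at day 3, by 0.57 in wild-type (limma, adjusted p = 0.0221) and 0.60 in *Usb1* knockout cells (adjusted p = 0.00824). The library kit is not stated to keep the strand, so reads from such stretches may come from either gene.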

How the data were processed

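Total RNA of R1/E embryonic stem cells was made into NEBNext Ultra libraries and sequenced on an Illumina NovaSeq platform. The deposited values are TPM, which the authors calculated from gene length and the reads mapped to each gene; HISAT2 2.1.0, StringTie 1.3.6 and GRCm38.p6 are named in the submitters' processing notes. The authors tested expression with DESeq2, which needs counts and was not used here. Gene positions and exon lengths came from GENCODE M21 (GRCm38). Reads recovered from TPM and exon length were whole within 0.01 for 95.9% to 96.7% of values per library, and intervals and replicates cover the spread between libraries only.

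On log2(TPM + 1), which understates changes of low genes, limma 3.58.1 (R 4.3.3) was fitted to the means of the 6 groups with a variance trend, over genes with at least 1 TPM in at least 2 of 17 libraries. Benjamini-Hochberg adjustment was made over all genes of each of the 12 comparisons, and an adjusted p under 0.05 passed. A fold change of 2 was a second rule. Alternatives were a pseudocount of 0.1, no filter or a filter at 5 TPM, quantile normalization, equal medians, a robust variance model, voom on the recovered reads, the libraries of a comparison alone, replicate number as a block, and each library left out. Leaving out wild-type replicate 1 at day 0 and knockout replicate 1 at day 3 together was added after seeing the data. The 10 genes and the lists were chosen with earlier results of these data known. Genes of the other lists were named for being among the 3 largest rises or falls of their list that passed, and *Dis3l*, *Rmrp*, *Rpph1*, *Exosc6* and the overlapping genes were named after their values were seen. Tables were made with pandas 2.3.3 and numpy 2.4.6 in Python 3.11.15, and figures with matplotlib 3.10.9. Promoter windows came from RefSeq (GRCm38.p6).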

Additional observations from a re-analysis of the deposited data

Results flagged for a closer look

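*Eri1* was singled out because the genotypes differed in its response to RA. The difference in log2 fold change, *Usb1* knockout minus wild-type, was 0.41 from day 0 to day 3 (limma, adjusted p = 0.0415) and 0.47 from day 1 to day 3 (adjusted p = 0.0125). The first was lost under 17 of 27 alternatives and the second under 2. *Eri1* was lower in 3 of 3 wild-type libraries at day 3 than in any wild-type library at day 0 or day 1, and 3 of 3 knockout libraries at day 3 were above those of wild-type cells. Both differences share the libraries at day 3, so they are not independent. Groups held at most 3 libraries, too few for a test of single libraries that lie far from the others.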

How the results depend on the processing

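Of the 54 changes of single genes that passed, 34 did so under all 27 alternatives other than the 2-fold rule, and 20 were lost under at least 1. All 9 changes in wild-type cells from day 0 to day 3, and 7 of the 8 in *Usb1* knockout cells, were kept under all of them. Of 66 changes that had not passed, 15 passed under at least 1, and no passed change reversed. With a 2-fold change also required in the main fit, 0 of 10 genes passed in every comparison. That rule was not combined with the alternatives, under some of which *Exosc2* and *Dis3* went past 2-fold at day 3 against day 0. For the genotypes at day 0, the 3 genes became 1 with quantile normalization, 1 with equal medians, 0 with the libraries of the comparison alone and 0 without both wild-type replicate 1 at day 0 and knockout replicate 1 at day 3. At day 3 the 3 became 0 with the libraries of the comparison alone. The 1 difference in response from day 0 to day 3, *Eri1*, became 0 under these 4 alternatives and under voom, and the 1 from day 1 to day 3 became 0 with quantile normalization and equal medians. From day 1 to day 3, 8 genes became 5 in wild-type cells with equal medians and 7 became 4 in the knockout with its own libraries alone, and from day 0 to day 1 in the knockout 5 became 3 under voom. The causes were not tested. Equal medians moved the median change of all genes from day 0 to day 3 in the knockout from 0.03 to -0.18 on the log2 scale, and quantile normalization moved it in wild-type cells at day 1 from 0.175 to 0.00. Leaving out each library gave 0 to 4 genes between the genotypes at day 0, 1 to 3 at day 1 and 2 to 3 at day 3. It gave 6 to 7, 9 to 10 and 5 to 8 in wild-type cells for day 1 and day 3 against day 0 and day 3 against day 1, and 2 to 5, 8 to 8 and 4 to 8 in the knockout. Differences in response gave 0 to 1, 0 to 2 and 1 to 1 in the same order. Where leaving out a library left wild-type cells at day 0 with 1 library, that library was assumed to vary like the other groups.

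Same-numbered replicates did not deviate together, with correlations of -0.13 to 0.12 over 40 pairs (1 over 0.1), so the numbers were not taken as pairs. With replicate number as a block, 2, 3 and 2 genes passed between the genotypes at day 0, 1 and 3, and 9 and 8 from day 0 to day 3 in wild-type and knockout cells. The libraries show the level of an mRNA and not of its protein, and their low reads on small noncoding RNAs limit what they show of the substrates.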
